A study of Mus musculus with 18 samples.

Results

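The 9 genes described here act in autophagy and the lysosome. They are the transcription factors Tfeb and Tfe3, the autophagy genes Atg2a, Atg2b, Atg9a and Wdfy3, and the lysosomal genes Lamp1, Ctsd and Grn. Every N4-acetylcytidine (ac4C) peak listed under one of these gene names was taken from the peak table of each of 6 mice. Of the 9 genes, 8 had a peak in at least 1 mouse, out of 7598 genes with a peak in the whole series. They held 118 of 52494 listed peaks, which merged into 46 of 20038 regions when peaks of different mice overlapped on the same strand.

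The peaks came from acetylated RNA immunoprecipitation sequencing (acRIP-seq) of hippocampus at 6 months of age, in which fragmented RNA is captured with an antibody to ac4C and compared with uncaptured input RNA. Each of 3 wild-type (WT) and 3 5xFAD replicates, called mice here, gave an antibody, an input and an IgG library, 18 libraries in all. The 5xFAD line carries mutant human transgenes of familial Alzheimer disease, APP with the Swedish, Florida and London mutations among them, with expression driven by the neuronal Thy1 promoter. WT mice were littermates without the transgenes on the C57BL/6J background. The labels give no other agent or treatment for either group.

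In autophagy a double membrane closes around cell material and fuses with the lysosome, where acid hydrolases degrade the cargo. TFEB and TFE3 belong to the MiT/TFE family, which switches on genes of both compartments once it is released from the cytoplasm, and mTORC1 at the lysosome surface holds it there in fed cells. ac4C is placed on cytidine by the acetyltransferase NAT10. Autophagic vacuoles that fill swollen neurites are a known feature of the Alzheimer disease brain.

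A peak's fold enrichment is its captured signal relative to input, and an mRNA's fold enrichment is the sum over its peaks, with 0 where a mouse had no listed peak. The mice differed in scale. The median fold enrichment of all peaks ranged from 6.88 to 7.63 in 5 mice and was 13.1 in 5xFAD mouse 3, where the lowest listed value was 4.06 against 2.03 to 2.29 in the others. For this reason values are also given on one scale. Each mouse was multiplied by a factor that equalised the medians of the summed values of mRNAs found in all 6 mice. The factor was 1.16, 1.22 and 1.46 in WT and 0.896, 0.947 and 0.682 in 5xFAD mice. Summed values also carry the number of peaks. The same factor was applied to single regions, where it did not equalise the medians of single peaks. It raised every WT value and lowered every 5xFAD value. Yet the listed peak medians of 5xFAD mice 1 and 2, 7.63 and 7.44, were near the WT medians of 6.88 to 7.16. A gain or loss of separation at a single region on one scale thus partly carries this factor. Same-numbered mice of the 2 genotypes resembled each other. Of 2633 regions found in exactly 2 mice of each genotype, 90.0% were in mice with the same numbers. No listed peak of these genes had a false discovery rate under 5%, and the listed rates ran from 22.4% to 100%, with 100% at 19 of the 20 peaks of 5xFAD mouse 3. The tables hold no read counts, so depth was unknown.

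Most mRNAs of the series had higher listed values in 5xFAD mice. Of 5444 mRNAs found in at least 2 of 3 mice of a genotype, termed reliable, 75% had a positive difference, and the median difference in log2(fold enrichment + 1) was 0.54, or 0.02 on one scale. No reliable mRNA (0%) was called at an adjusted p under 0.05 by limma with Benjamini-Hochberg adjustment. An unadjusted p under 0.05 was reached by 274 higher (5.03%) and 33 lower mRNAs (0.606%). Markers of several cell types had peaks, among them 7 of 8 hippocampal neuron, 4 of 6 astrocyte and 4 of 6 oligodendrocyte genes. Of 7 microglia markers, 5 had a peak and Aif1 and Trem2 had none. As listed, the summed fold enrichment was higher in every 5xFAD mouse than in any WT mouse for all 5 marker lists. The microglia markers summed to 15.8 to 32.1 in WT and 58.0 to 79.2 in 5xFAD mice, the neuron markers to 138 to 174 and 186 to 201, and the astrocyte markers to 59.6 to 66.8 and 80.9 to 115. The oligodendrocyte markers summed to 154 to 196 in WT and 231 to 262 in 5xFAD mice, and vascular and blood markers to 23.3 to 47.6 and 60.7 to 125. On one scale the reliable microglia markers had a median log2 difference of 1.28, with 4 of 5 higher. There the neuron markers stood at -0.04 (2 of 5 higher) and the oligodendrocyte markers at -0.05 (2 of 4). The astrocyte markers stood at 0.17 (2 of 2) and the vascular and blood markers at 0.29 (1 of 2). The part of these shifts in the results below was not tested. In bulk tissue, more cells of a type cannot be told apart from more captured RNA per cell.

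The sequences below carry the regions to which the results return. They are the coding parts of 6 peak regions from genome build GRCm38 (mm10), written 5′ to 3′ on the transcribed strand. Capitals mark bases inside the pattern CNNCNNCNNCNN, a C in the same place of successive triplets, which has been described in acetylated regions of human mRNA. The pattern was searched on the transcribed strand only. Overlapping matches were joined in the capitals, while the counts of matches below include each overlapping match. They are the Tfeb exon with the start codon (chr17:47785810-47786109, plus strand, first 300 coding bases), Lamp1 exon 1 (chr8:13159389-13159434, plus strand), Atg2a exon 9 (chr19:6247639-6247876, plus strand), Wdfy3 exon 4 (chr5:101981379-101981558, minus strand), Wdfy3 exon 35 (chr5:101896399-101896578, minus strand) and Ctsd exon 1 (chr7:142387737-142387804, minus strand).
Tfeb start codon exon: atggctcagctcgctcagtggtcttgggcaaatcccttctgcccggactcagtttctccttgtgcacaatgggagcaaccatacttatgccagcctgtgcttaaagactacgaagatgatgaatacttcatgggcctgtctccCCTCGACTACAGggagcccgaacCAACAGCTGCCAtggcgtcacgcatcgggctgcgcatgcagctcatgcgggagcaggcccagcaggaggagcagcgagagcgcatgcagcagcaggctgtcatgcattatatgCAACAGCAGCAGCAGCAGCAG
Lamp1 exon 1: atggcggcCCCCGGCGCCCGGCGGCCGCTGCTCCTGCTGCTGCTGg
Atg2a exon 9: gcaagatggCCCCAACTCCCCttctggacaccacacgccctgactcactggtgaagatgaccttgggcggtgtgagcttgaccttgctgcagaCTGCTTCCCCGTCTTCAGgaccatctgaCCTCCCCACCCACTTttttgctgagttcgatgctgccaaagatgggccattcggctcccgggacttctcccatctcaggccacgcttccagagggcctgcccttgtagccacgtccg
Wdfy3 exon 4: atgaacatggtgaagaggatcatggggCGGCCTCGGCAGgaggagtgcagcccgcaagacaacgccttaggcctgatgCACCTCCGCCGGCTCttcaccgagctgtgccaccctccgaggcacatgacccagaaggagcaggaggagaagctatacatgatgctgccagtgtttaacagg
Wdfy3 exon 35: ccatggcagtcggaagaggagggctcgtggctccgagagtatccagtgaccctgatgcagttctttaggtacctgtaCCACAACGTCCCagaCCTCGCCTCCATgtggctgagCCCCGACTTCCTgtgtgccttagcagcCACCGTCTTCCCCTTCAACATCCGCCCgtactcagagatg
Ctsd exon 1: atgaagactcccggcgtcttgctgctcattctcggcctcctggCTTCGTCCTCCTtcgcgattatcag

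Over their whole length, 39 of the 46 regions of these genes (84.8%) held the pattern, against 74.5% of all 20038 regions. The whole Lamp1 exon 1 region had 17 matches in 300 bases and 76.3% G and C. The pattern was present in 88.9% of the 1160 regions within 10% of its length, so a match was common in a region of this size. The Tfeb start codon region had 13 matches in 477 bases, and 95.1% of regions of like length held at least 1. Wdfy3 exon 35 had 9 matches in 180 bases, where 72.1% of regions of like length held 1 or more. These shares are for any match and give no comparison for the number of matches. The 7 regions without a match were short exons of Wdfy3, Atg2b exon 3 and Lamp1 exon 2, none longer than 153 bases. A match is a string of letters and not a mapped acetylation site.

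Tfeb, the factor that activates lysosomal and autophagy genes, had the largest difference of the 7 members that were tested, and its summed values did not overlap between the genotypes. The summed fold enrichment was 12.4, 11.7 and 4.40 in WT mice 1, 2 and 3. It was 29.7, 20.2 and 45.6 in 5xFAD mice 1, 2 and 3. Every 5xFAD mouse lay above every WT mouse, with means of 9.52 ± 4.45 (SD, n = 3) and 31.8 ± 12.8 (SD, n = 3). The log2 difference was 1.68 ± 0.65 (SE), with an unadjusted limma p of 0.0388 and an adjusted p of 0.582, so the call was not made. Without 5xFAD mouse 3 the difference was 1.39 (adjusted p = 0.678). Non-overlap with 5xFAD higher was seen in 14.7% of all reliable mRNAs and in 2 of the 7 tested members, Tfeb and Wdfy3. No tested member had non-overlapping groups with 5xFAD lower, as 0.771% of reliable mRNAs did. On one scale it was seen in 4.94% of mRNAs and in Tfeb alone of the members, at 14.4, 14.3 and 6.44 in WT against 26.6, 19.1 and 31.1 in 5xFAD mice. No tested member was without overlap and lower on one scale, as 3.62% of reliable mRNAs were. The one-scale Tfeb difference was 1.11 ± 0.54 (SE, adjusted p = 0.673).

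The Tfeb peaks fell into 3 regions, all toward the 5′ end of the gene. The exon with the start codon (chr17:47785720-47786196), printed above, was found in all 6 mice. Its fold enrichment was 6.89, 5.38 and 4.40 in WT and 9.72, 9.38 and 9.81 in 5xFAD mice, so the listed values did not overlap (log2 difference 0.71 ± 0.52 SE, adjusted p = 0.780). On one scale the values were 7.99, 6.58 and 6.44 against 8.71, 8.88 and 6.69. There the groups overlapped, and the log2 difference was 0.18. The median log2 difference of all tested regions was 0.44 as listed and -0.0098 on one scale.

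The other Tfeb regions are untranslated first exons of other annotated transcripts, upstream of the start codon exon. The farther one, called first exon A (chr17:47737030-47737316), was listed at 5.55 and 6.33 in WT mice 1 and 2, was without a peak in WT mouse 3, and stood at 8.51, 10.8 and 18.8 in 5xFAD mice. All 5xFAD values exceeded the WT values (log2 difference 1.84 ± 0.94 SE, adjusted p = 0.482), but on one scale 5xFAD mouse 1 at 7.63 lay below WT mouse 2 at 7.75. First exon B (chr17:47737928-47738204) had no peak in any WT mouse, 11.4 in 5xFAD mouse 1 and 17.0 in 5xFAD mouse 3, and none in 5xFAD mouse 2 (adjusted p = 0.482). Neither region passed the test. The summed Tfeb value thus moved with the number of regions listed as well as with their height, at 2, 2 and 1 peaks in WT and 3, 2 and 3 in 5xFAD mice.

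**Figure D1:**
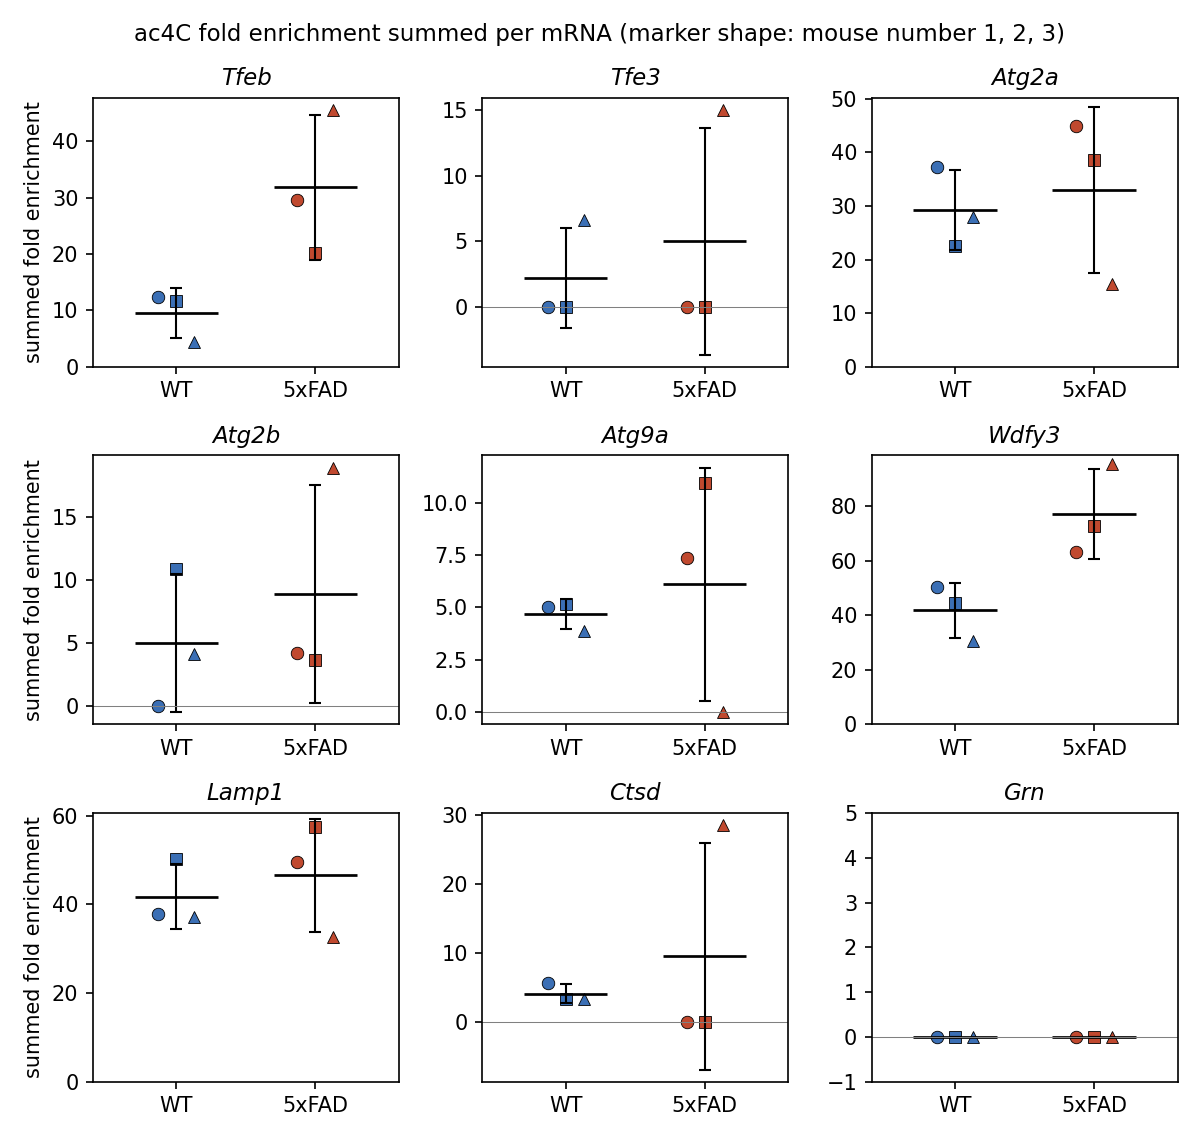
Summed ac4C fold enrichment (no unit) of each of the 9 mRNAs in WT and 5xFAD mice; each point is 1 mouse, with marker shape for its number, the bar is the mean and the error bar the SD of 3 mice. Tfeb and Wdfy3 are the genes whose 5xFAD points all lie above the WT points, while Grn is at 0 in all 6 mice.

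The mRNAs outside these genes whose levels across the 6 mice were most like those of Tfeb were, by Euclidean distance in log2(fold enrichment + 1), Fads2 (0.68), Slc4a5 (0.78), Cdk18 (0.91), Qser1 (0.92) and Sorbs2 (0.94). Fads2, a fatty acid desaturase, was listed at 11.4, 14.3 and 4.87 in WT and 19.9, 17.0 and 46.5 in 5xFAD mice. All 5 shared with Tfeb the lowest value in WT mouse 3 and the highest in 5xFAD mouse 3. Of the members, Wdfy3 also had its lowest value in WT mouse 3 and its highest in 5xFAD mouse 3, at a distance of 4.37 from Tfeb. Atg2a had a smaller distance of 3.51 through its closer level, but its lowest value was in 5xFAD mouse 3, where Tfeb was highest.

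Tfe3, the relative of Tfeb that acts on many of the same genes, had 1 region, its untranslated first exon (chrX:7762661-7763213). It was listed at 6.59 in WT mouse 3 and 15.0 in 5xFAD mouse 3 and in no other mouse. With 1 mouse per genotype it was not reliable and not tested. On one scale these values were 9.65 and 10.2, in mice that share a number.

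Of the genes that build the autophagosome membrane, Atg2a had values that differed little between genotypes. ATG2 proteins move lipid from the endoplasmic reticulum into the growing membrane. The summed Atg2a fold enrichment was 37.3, 22.5 and 27.8 in WT and 44.9, 38.6 and 15.5 in 5xFAD mice. The groups overlapped, with 5xFAD mouse 3 lowest of all (log2 difference 0.07 ± 0.63 SE, adjusted p = 0.985). On one scale the difference was -0.52 ± 0.66 (SE), so the sign depended on the scale.

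Within Atg2a, 10 of its 40 exons had a peak region, and exon 9 was the one found in all 6 mice. Exon 9 was listed at 9.09, 6.16 and 8.25 in WT and 8.55, 6.78 and 7.49 in 5xFAD mice, and the ranges overlapped almost fully (log2 difference -0.03 ± 0.53 SE). Exon 1, with the start codon (chr19:6241668-6241966), was listed at 4.2, 4.27 and 4.71 in WT mice but at 4.69 in 5xFAD mouse 2 alone. Exon 13 (chr19:6250024-6250267) had the same pattern, with 8.74, 4.82 and 8.17 in WT and 9.67 in 5xFAD mouse 2. As listed, the values of 5xFAD mouse 2 were at or above most WT values, so what differed there was whether a peak was listed. On one scale exon 1 stood at 4.44 in 5xFAD mouse 2, below 4.87, 5.22 and 6.896 in WT mice. Exon 13 stood at 9.16 in 5xFAD mouse 2, against 10.14, 5.898 and 11.96 in WT mice. The comparison of peak height thus depended on the scale. Exon 20 (chr19:6252690-6252883), at 4.63 and 5.62, and exon 28 (chr19:6255619-6255827), at 11.9 and 5.78, had peaks in 5xFAD mice 1 and 2 and in no WT mouse. None of these 4 exons was called (adjusted p from 0.482 to 0.558). Without 5xFAD mouse 3, which had no peak in any of them, exons 20 and 28 were called as higher in 5xFAD mice. Their lower adjusted p, 0.00586, was the lowest of all regions in that setting. There 760 of 8846 tested regions were called as higher and 70 as lower. Leaving out that mouse removed the only 5xFAD value of 0 in exons 20 and 28, so these calls add no support.

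Atg2b, the paralog of Atg2a, had 6 peaks in 5 regions, and 4 of them were seen in a single mouse. The summed values were 0, 10.9 and 4.08 in WT and 4.18, 3.63 and 18.9 in 5xFAD mice. They overlapped (log2 difference 1.00 ± 1.1 SE, adjusted p = 0.818). The one region in more than 1 mouse was exon 6 (chr12:105666597-105666776), at 4.18 in 5xFAD mouse 1 and 10.3 in 5xFAD mouse 3 and with no peak in WT mice (adjusted p = 0.482).

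Atg9a encodes a membrane protein that scrambles lipids on the vesicles that seed the autophagosome. Its summed value was 5.02, 5.15 and 3.88 in WT and 7.36, 10.9 and 0 in 5xFAD mice. In 5xFAD mice the value was thus either above all WT mice or without a listed peak (log2 difference -0.29 ± 1.01 SE, adjusted p = 0.945). Without 5xFAD mouse 3 the difference was 0.82 (unadjusted p = 0.0856, adjusted p = 0.678). The mouse left out held the only 5xFAD value of 0 for Atg9a, so this value adds no support. Most peaks lay in the last exons (chr1:75180865-75182737), around the stop codon, where another annotated gene lies on the same strand and its reads cannot be told apart, at 5.02 and 3.88 in WT mice 1 and 3 and 7.36 and 6.06 in 5xFAD mice 1 and 2. In WT mouse 2 the only peak was elsewhere, in exon 8 (5.15).

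Wdfy3 encodes a very large adaptor, also called ALFY, that binds phosphatidylinositol 3-phosphate and brings aggregated protein to the autophagosome. Its summed values were 50.2, 44.7 and 30.5 in WT and 63.2, 72.8 and 95.3 in 5xFAD mice. The groups did not overlap, with means of 41.8 ± 10.1 (SD, n = 3) and 77.1 ± 16.5 (SD, n = 3), but the log2 difference of 0.88 ± 0.53 (SE) was not called (unadjusted p = 0.147, adjusted p = 0.688). On one scale the values were 58.2, 54.6 and 44.7 against 56.6, 68.9 and 65.0. There the groups overlapped and the difference was 0.27 ± 0.44 (SE).

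The number of Wdfy3 peaks was 5 in each WT mouse and 8, 9 and 8 in 5xFAD mice, spread over 19 of 67 exons. Of these 19 regions, 10 were seen in 1 mouse. Those seen in 5xFAD mice only numbered 9 (47.4%, against 30.5% of all regions), and those in WT mice only 2 (12.8% of all regions). The regions seen in 1 mouse are all among these one-genotype regions, as a single mouse has 1 genotype. Exon 53, listed in 5xFAD mice 2 and 3, was the only one-genotype region of the gene in more than 1 mouse. The 5xFAD mice listed more peaks in all, at 10234, 10088 and 8459 against 8375, 7904 and 7434 in WT mice. Exon 35, printed above, was listed at 7.98 and 5.34 in WT mice 1 and 2 and 6.28, 6.90 and 10.8 in 5xFAD mice. Exon 36 (chr5:101894911-101895144) was listed at 10.0, 5.94 and 8.06 in WT and 7.65 and 10.45 in 5xFAD mice 1 and 3. Both coding exons were found in 5 of 6 mice, with listed values that overlapped, and no region of the gene was found in more. The one-scale values of exon 36 were 11.6, 7.27 and 11.8 in WT against 6.86, 0 and 7.13 in 5xFAD mice, so that every 5xFAD mouse lay below every WT mouse (adjusted p = 0.760).

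Wdfy3 exon 4, which holds the start codon (chr5:101981379-101981589), was the region of these genes with the lowest unadjusted p. It had no peak in WT mice 1 and 2, 5.88 in WT mouse 3, and 6.92, 7.15 and 13.9 in 5xFAD mice. The listed values did not overlap, with a log2 difference of 2.38 ± 0.93 (SE, unadjusted p = 0.0425, adjusted p = 0.482), and across all tested regions 5.11% had an unadjusted p under 0.05. On one scale WT mouse 3 at 8.61 lay above 5xFAD mice 1 and 2 at 6.20 and 6.77. The untranslated exon 1 (chr5:102069596-102069921) had the highest values of the gene, 17.3 in WT mouse 2 and 17.7 in 5xFAD mouse 2, and no peak elsewhere.

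**Figure D2:**
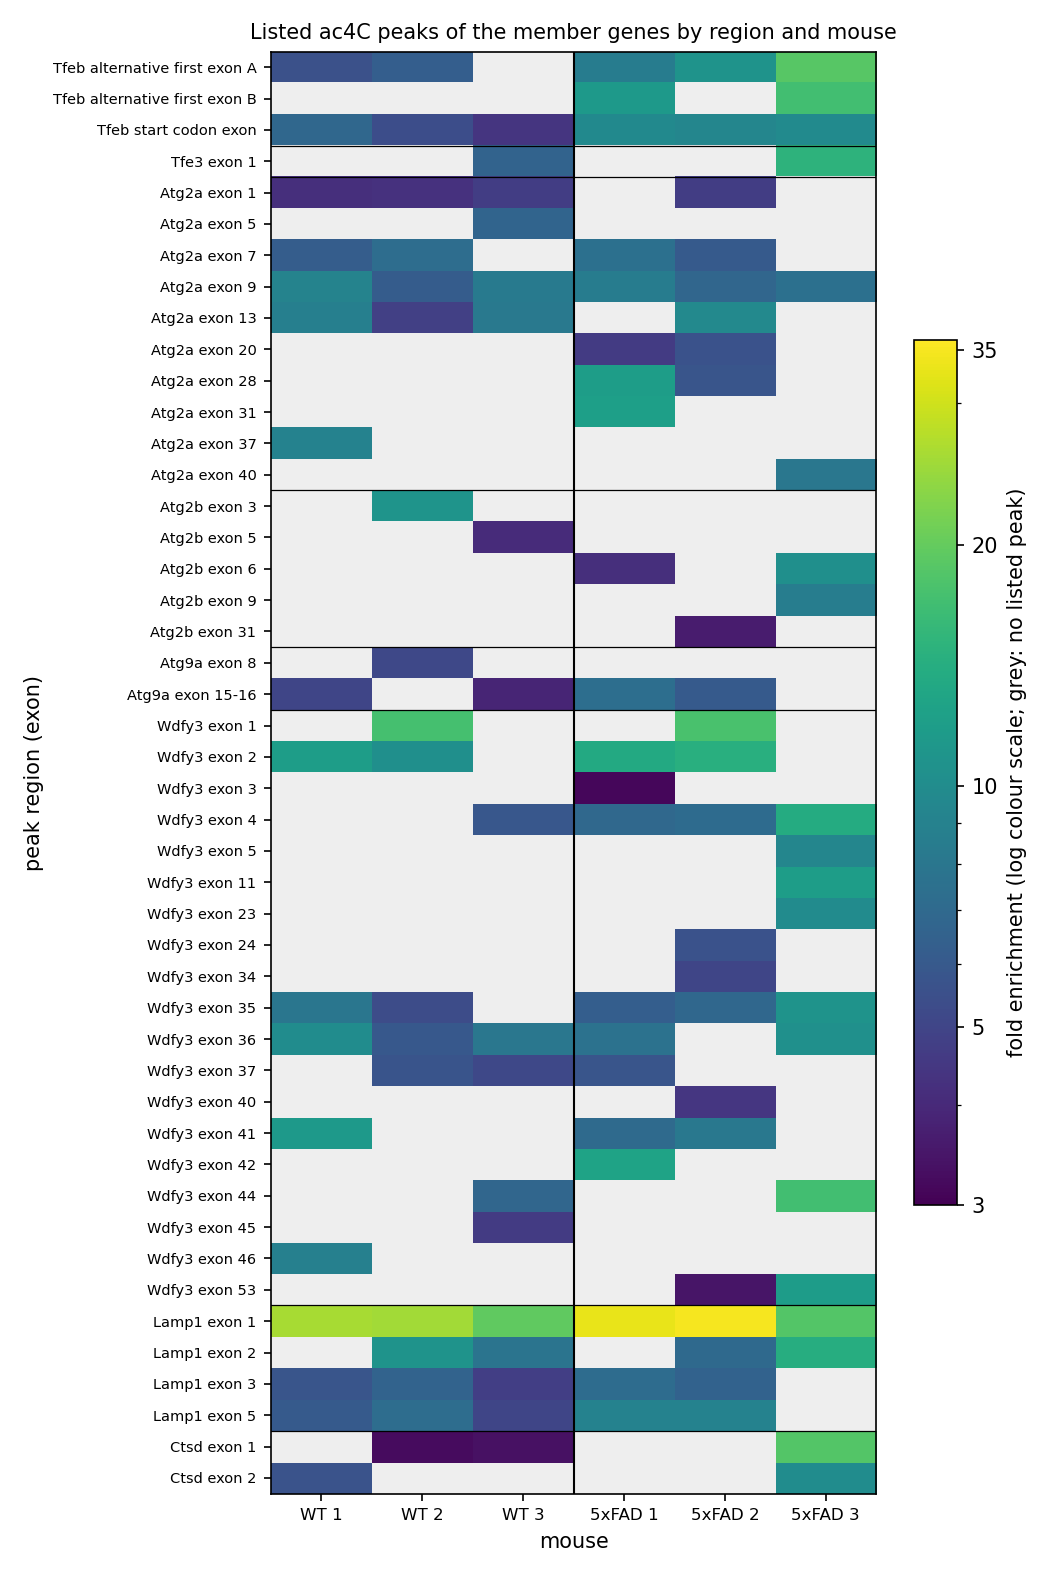
Fold enrichment (no unit, logarithmic colour scale) of the 46 peak regions in each of 6 mice, ordered from 5′ to 3′ within each gene; grey marks a region without a listed peak. Lamp1 exon 1, Atg2a exon 9 and the Tfeb start codon exon are the 3 rows filled in all 6 mice, and 19 rows are filled in 1 mouse.

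Lamp1, a heavily glycosylated protein of the lysosomal membrane, carried the strongest peak of the 9 genes. Exon 1 (chr8:13159135-13159434), which holds the start codon, was listed at 26.1, 25.5 and 19.6 in WT and 33.3, 34.96 and 18.5 in 5xFAD mice. It ranked between the 94.0th and 97.9th percentile of all peaks in 5 mice and at the 72.2nd in 5xFAD mouse 3. The 5xFAD mice held both the highest values and the lowest (log2 difference 0.23 ± 0.57 SE, adjusted p = 0.958). On one scale the WT mice stood at 30.2, 31.2 and 28.7, and the 5xFAD mice at 29.8, 33.1 and 12.6.

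The other Lamp1 regions were coding exons 2, 3 and 5. Exon 3 (chr8:13167158-13167377) was listed at 5.77, 6.62 and 4.76 in WT and 7.21 and 6.56 in 5xFAD mice 1 and 2, and exon 5 (chr8:13171205-13171383) at 6.04, 7.26 and 5.03 and at 9 and 9.01. Neither had a peak in 5xFAD mouse 3. The summed Lamp1 value was 37.9, 50.1 and 37.2 in WT and 49.5, 57.5 and 32.6 in 5xFAD mice. The sums overlapped (log2 difference 0.13 ± 0.53 SE, adjusted p = 0.955), and the sign turned on one scale (-0.47 ± 0.54 SE).

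Ctsd, the gene of the lysosomal aspartic protease cathepsin D, had a weak peak in each WT mouse and peaks in a single 5xFAD mouse. The summed values were 5.66, 3.24 and 3.35 in WT and 0, 0 and 28.5 in 5xFAD mice. The arithmetic mean was therefore higher in 5xFAD (9.51 ± 16.5 against 4.08 ± 1.37, SD, n = 3 each), while the log2 difference was negative (-0.69 ± 1.39 SE, adjusted p = 0.877). By the study's class it was AD absent, reliable in WT mice alone, as were 10.8% of reliable mRNAs. Without 5xFAD mouse 3 the log2 difference was -2.31 (adjusted p = 0.0587). In that setting 216 of 5052 tested mRNAs were called as higher and 31 as lower. The mouse left out held the only 5xFAD peaks of Ctsd, so this value adds no support. The start codon exon, printed above, ranked at the 1.09th and 1.86th percentile of peaks in WT mice 2 and 3 and at the 72.3rd in 5xFAD mouse 3, where it was listed at 18.5. The WT values of 3.24 and 3.35 were below the lowest value listed for any peak of 5xFAD mouse 3.

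Grn, which encodes the lysosomal glycoprotein progranulin, had no listed peak in any of the 6 mice. The mRNA may carry ac4C below what the peak caller listed, and the tables give no coverage with which to set a limit.

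**Figure D3:**
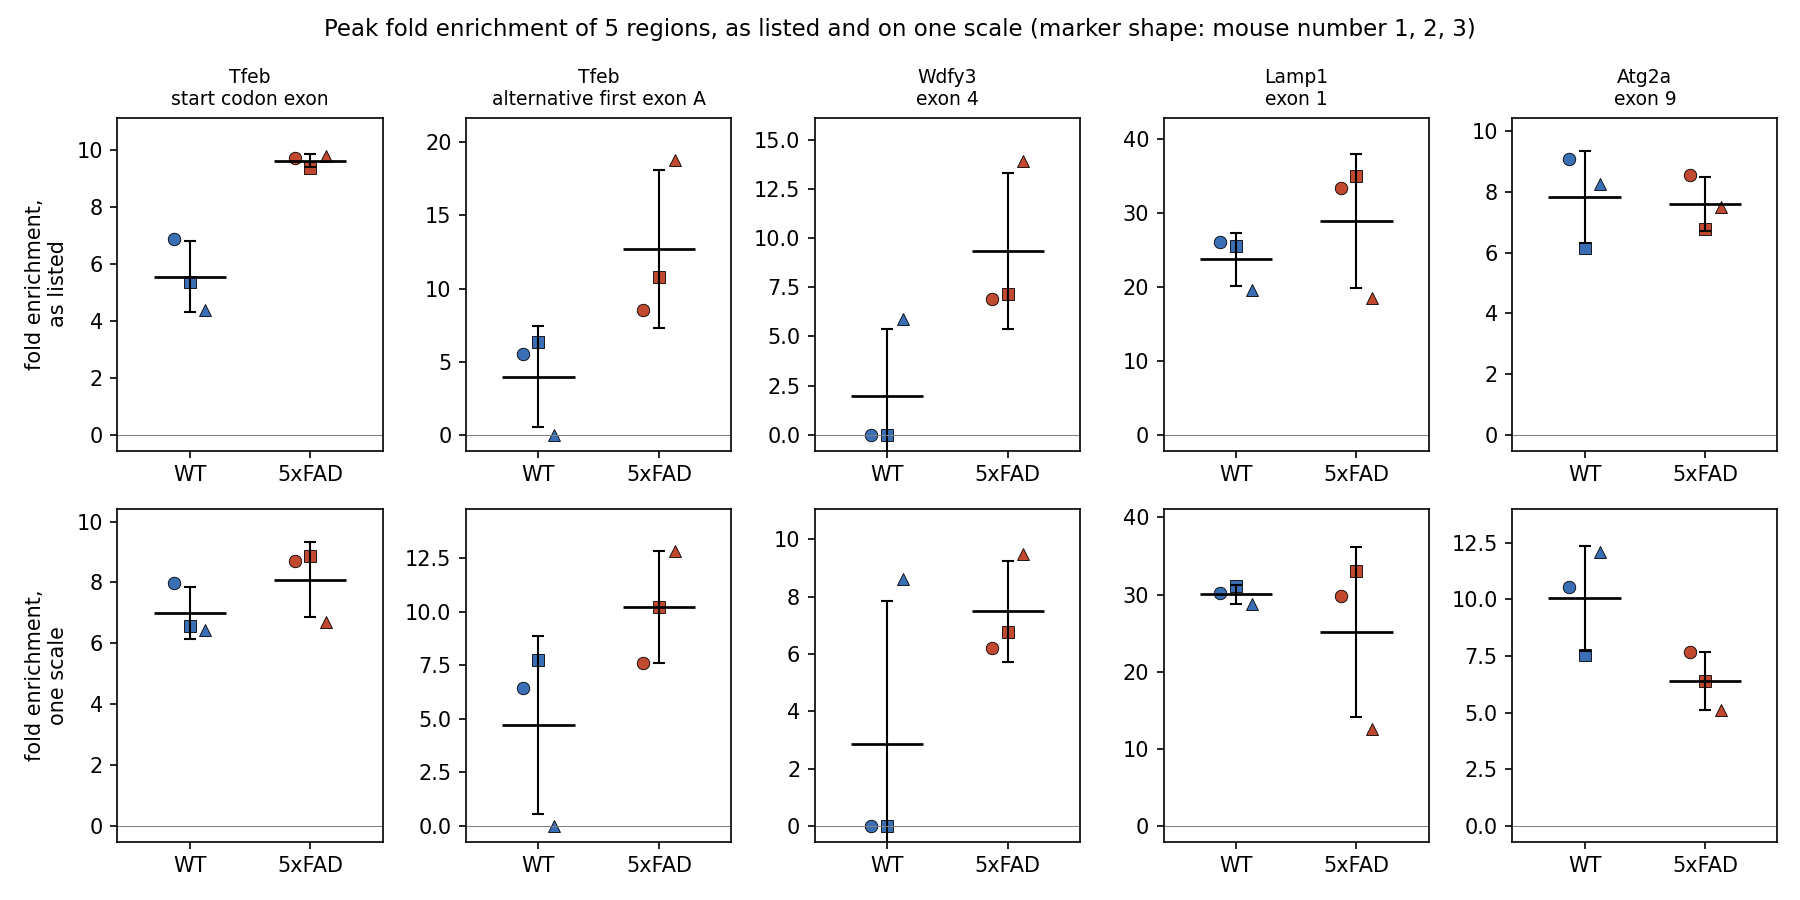
Fold enrichment (no unit) of 5 peak regions per mouse, as listed (top) and on one scale (bottom); points are mice with marker shape for the number, bars are means and error bars the SD of 3 mice, and 0 means no listed peak. The Tfeb start codon exon, Tfeb first exon A and Wdfy3 exon 4 separate the genotypes as listed and overlap on one scale. The one-scale factor was set on summed values and raises WT peaks while lowering 5xFAD peaks.

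Across the genes, 16 of the 23 regions found in at least 2 mice of a genotype had a positive log2 difference (median 0.23), against 72.4% of all 10027 tested regions (median 0.44). On one scale 11 of the 23 were positive (median -0.02). No region of these genes and none in the series (0%) was called with the values as listed. On one scale 1.99% of the series' regions were called and none of these genes. The Tfeb start codon exon, Tfeb first exon A and Wdfy3 exon 4 had groups that did not overlap with 5xFAD higher, as did 13.9% of all tested regions. None was without overlap and lower in 5xFAD mice, as 0.658% of all tested regions were. On one scale no region of these genes was without overlap and higher, against 4.1% of all tested regions. In the other direction, Atg2a exon 1, Lamp1 exon 3 and Wdfy3 exon 36 were without overlap and lower in 5xFAD mice on that scale, against 4.86% of all tested regions. Each of these 3 lacked a peak in at least 1 5xFAD mouse, and their one-scale adjusted p values were 0.472, 0.912 and 0.760. The one-scale factor was set on summed values and raises WT peaks while lowering 5xFAD peaks, so these regions are not read as lower. Of the mRNA differences, 5 of 7 were positive with a median of 0.13 as listed, and 3 of 7 with a median of -0.47 on one scale, where 51.5% of all reliable mRNAs were positive. The median of these genes was below that of all reliable mRNAs on both scales.

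**Figure D4:**
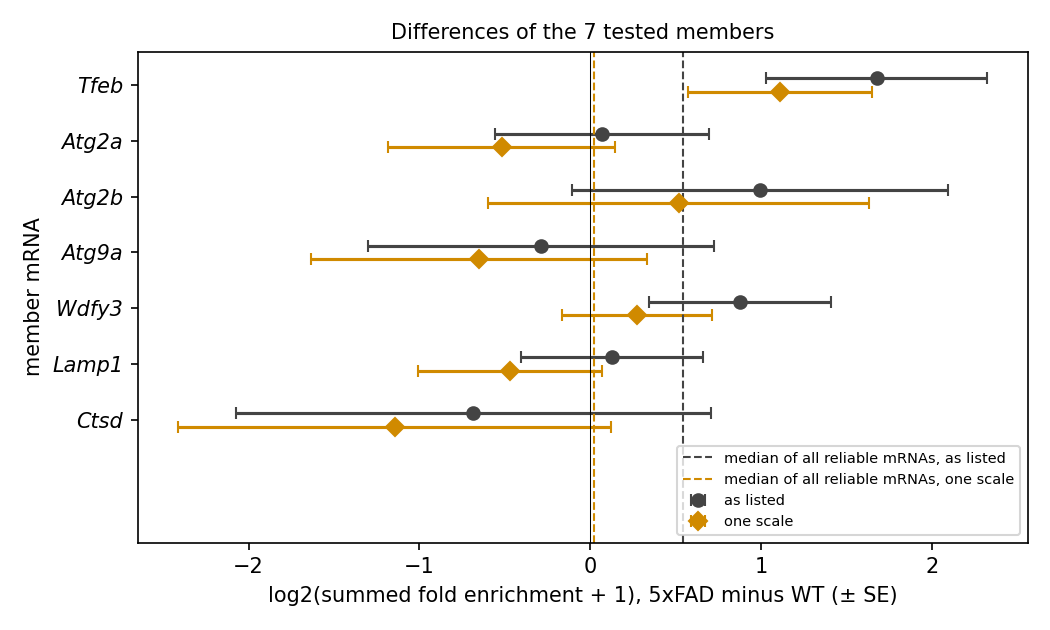
Difference in log2(summed fold enrichment + 1) between 5xFAD and WT mice (x axis, log2 units) for the 7 tested mRNAs, with the SE, as listed and on one scale; dashed lines are medians over the 5444 reliable mRNAs. Tfeb lies farthest to the right on both scales, and Atg2a and Lamp1 cross 0 when the scale is changed.

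By position, the peaks of these genes were in coding sequence in 60.2% of cases and at the start codon in 20.3%, against 51.4% and 19.9% of all peaks. Peaks in 5′ untranslated exons made up 13.6% against 8.16%, and those at the stop codon 5.08% against 18.3%. An exon listed in several mice counts once per mouse here. Wdfy3 and Atg2a, with many coding exons, gave 40 and 26 of the 118 peaks. Each mouse contributed 17 to 24 of these peaks, 0.203% to 0.242% of its peaks in WT and 0.205% to 0.238% in 5xFAD mice. The ranges overlapped. Of the 46 regions, 6.52% were in all 6 mice and 41.3% in 1 mouse, against 8.63% and 34.7% of all regions.

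Further genes of the pathway were taken from 9 lists with 166 genes besides the members. Of these, 88 had a peak and 59 were reliable. The difference was positive in 45 of the 59 (median 0.53), close to the median of all reliable mRNAs, and in 29 of 59 on one scale (median -0.02). Of all reliable mRNAs 75% were positive as listed and 51.5% on one scale. None was called. An unadjusted p under 0.05 was reached by 2, both higher in 5xFAD mice, as by 5.03% of all reliable mRNAs in that direction. Groups without overlap and higher in 5xFAD mice were seen in 8 of the 59 as listed, against 14.7% of all reliable mRNAs. On one scale there were 2, Ambra1 and Gm2a, against 4.94%. As listed, 0 of the 59 were without overlap and lower, against 0.771%. Most genes named below were picked by the smallest p, which favours separated groups.

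In the list on nutrient sensing and control of MiT/TFE factors, 14 of 30 genes were reliable, of which 10 were higher and 4 lower (median 0.83). On one scale 8 of the 14 were higher (median 0.24). The smallest p values were those of Ppp3ca, a catalytic subunit of the phosphatase calcineurin, which removes phosphate from TFEB, and of Nprl3, a subunit of the GATOR1 complex that restrains mTORC1. Ppp3ca was listed at 6.15 and 9.27 in 5xFAD mice 1 and 3, and Nprl3 at 3.99 and 9.92 in 5xFAD mice 2 and 3. Neither had a peak in a WT mouse (adjusted p = 0.582 for both).

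Of 14 autophagy initiation genes 5 were reliable, and 4 of them were higher (median 0.40), or 2 on one scale (median -0.20). Ambra1, which binds Beclin 1 and promotes the start of autophagy, was listed at 7.93, 12.5 and 9.77 in WT and 31.6, 28.1 and 26.2 in 5xFAD mice. The groups did not overlap on either scale (log2 difference 1.44 ± 0.51 SE, unadjusted p = 0.0280, adjusted p = 0.582). Its peak number was 1, 2 and 2 against 5, 5 and 2. Pik3r4, a subunit of the phosphatidylinositol 3-kinase of autophagy, was listed at 5.35 and 9.08 in 5xFAD mice 1 and 2 alone (adjusted p = 0.582). Without 5xFAD mouse 3 it was called as higher in 5xFAD mice (adjusted p = 0.0283). In that setting 216 of 5052 tested mRNAs were called as higher and 31 as lower. The mouse left out held the only 5xFAD value of 0 for Pik3r4, so the call adds no support.

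The lists on building and filling the autophagosome had few reliable genes. Wipi1, a phosphoinositide-binding protein and the one reliable non-member of the lipid supply list, was listed at 9.92, 3.91 and 3.50 in WT and 11.2, 0 and 7.31 in 5xFAD mice. In the LC3 conjugation list 4 of 16 genes were reliable and 3 were higher, or 1 on one scale. Atg7, its E1-like enzyme, was listed at 6.57 and 4.68 in 5xFAD mice 2 and 3 alone, while Atg16l1 was listed in WT mice 1 and 3 (5.71 and 6.93) and 5xFAD mouse 1 (6.23). Among 10 cargo receptors 4 were reliable, 2 higher and 2 lower, with 1 higher on one scale. Tax1bp1, a receptor for ubiquitinated cargo, was listed at 4.42 and 4.38 in WT mice 1 and 3 and in no 5xFAD mouse (adjusted p = 0.582). Tollip, another ubiquitin-binding adaptor, was listed at 17.3, 8.58 and 13.6 in WT and 23.5, 8.80 and 28.0 in 5xFAD mice.

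Of 7 reliable genes for fusion with the lysosome 5 were higher, with a median of 0.57 beside 0.54 for all reliable mRNAs. On one scale 3 were higher (median -0.03). Rab7, the small GTPase of late endosomes, was listed at 26.0, 23.4 and 12.04 in WT and 31.6, 29.6 and 34.4 in 5xFAD mice. Plekhm1, an adaptor that binds Rab7, was listed at 19.1, 22.0 and 21.4 and at 25.9, 36.5 and 32.2. Both separated the genotypes as listed and neither did on one scale.

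For the lysosomal membrane, 5 of 14 genes besides Lamp1 were reliable, and 4 were higher (median 0.36), or 2 on one scale (median -0.16). Tmem192 was listed at 7.28 in WT mouse 2 and at 11.2, 6.57 and 9.66 in 5xFAD mice (unadjusted p = 0.0507, adjusted p = 0.582). Tpcn1, a cation channel of endosomes and lysosomes, was listed at 11.8, 38.4 and 36.5 in WT and 32.4, 57.8 and 64.4 in 5xFAD mice. The groups overlapped for both genes. Of 20 proton pump genes 4 were reliable and all 4 were higher as listed (median 0.75), but 2 on one scale (median 0.38). Atp6v0e2 and Atp6v0a1, subunits of the membrane sector, each had a peak in 1 WT mouse (7.43 and 9.26) and 2 5xFAD mice.

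The lumen list, mainly hydrolases, had the highest median of the 9 lists, 1.02 as listed and 0.52 on one scale. Of its 43 non-members counted here 15 were reliable, with 13 higher and 2 lower, and 1 had an unadjusted p under 0.05. Fuca1, the lysosomal fucosidase, was listed at 4.33 in WT mouse 3 and at 6.63, 5.79 and 11.3 in 5xFAD mice (unadjusted p = 0.0303, adjusted p = 0.582). It did not overlap as listed and overlapped on one scale. Gm2a, a lipid-binding activator protein of ganglioside breakdown, was listed at 3.99 and 4.55 in WT mice 2 and 3 and at 12.2, 7.98 and 10.99 in 5xFAD mice (unadjusted p = 0.0555, adjusted p = 0.582). Its groups did not overlap on either scale. The summed levels of all 5 cell type marker lists, given above, moved in the same direction as listed. On one scale the marker medians were 1.28 for microglia, 0.29 for vascular and blood, 0.17 for astrocyte, -0.04 for neuron and -0.05 for oligodendrocyte genes. The part of these shifts in the lumen list was not tested. Sgsh, the lysosomal sulfamidase, was listed at 8.75 and 6.33 in 5xFAD mice 1 and 2 alone (adjusted p = 0.582). Like Pik3r4, it was called without 5xFAD mouse 3 (adjusted p = 0.0283). That mouse held its only 5xFAD value of 0, so this call adds no support either. Sgsh is named because of that call, after its values were seen. Ctsd differed from most of the list in its negative log2 difference.

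**Figure D5:**
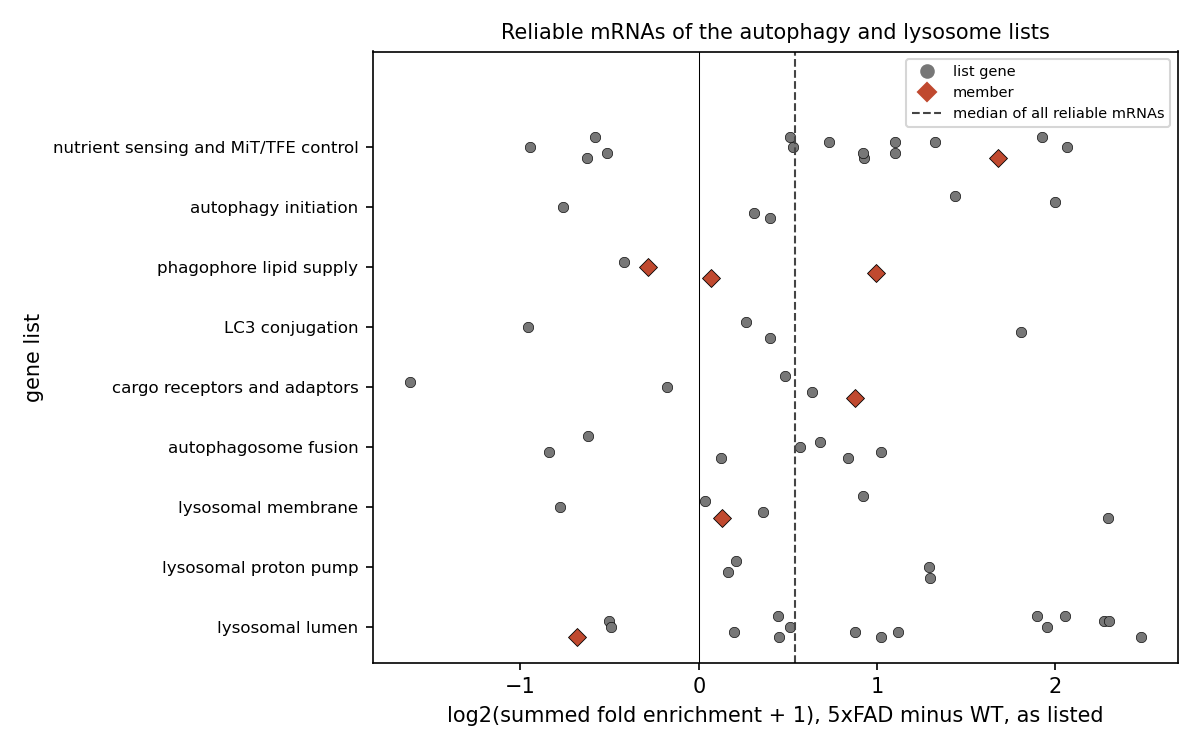
Difference in log2(summed fold enrichment + 1) between 5xFAD and WT mice (x axis, log2 units, as listed) for the reliable mRNAs of the 9 lists; grey points are list genes, red diamonds the members, and the dashed line is the median of all reliable mRNAs. Most lysosomal lumen genes lie to the right of 0, and Ctsd is the lowest point of its list.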

How the data were processed

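Hippocampal acRIP-seq peak tables of 3 WT and 3 5xFAD mice were used, with groups read from the labels. As the labels and the paper's methods state, the authors used FastQC, cutadapt 1.9.3 and HISAT2 2.04 on mm10, called MACS peaks per mouse against input, kept protein-coding exons and dropped peaks overlapping IgG peaks. The deposited fold enrichment is a ratio of antibody capture over input. The methods define it as the acRIP minus the IgG signal, over input. Whether the deposited column follows this definition or is the peak caller's own ratio is not stated. The deposited score is -10 times the log10 of the peak p-value. The deposited FDR is a percent. The methods also state that peaks had an FDR-adjusted p under 0.05 and a fold enrichment above 1. No listed peak of these genes had a listed FDR under 5%. The listed FDR was not used as a filter here. Listed positions follow exons, so a peak is known to the exon. Exon numbers are those of 1 RefSeq transcript per gene.

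An mRNA was reliable if 2 of 3 mice of a genotype, or all of them, listed a peak. Peaks overlapping by at least 1 bp on a strand were merged into regions, valued at the highest peak. log2(fold enrichment + 1) was tested with limma 3.58.1 (lmFit, eBayes) in R 4.3.3 over all reliable mRNAs or regions, with Benjamini-Hochberg adjustment at 0.05. P-values measure the spread between these samples. The deviations of same-numbered mice from their group means correlated at 0.53, 0.47 and 0.29. The reported tests nevertheless did not pair the mice. Pairing by number was fitted only as an alternative, the replicate block. Named genes were the 9 members, list genes with peaks in all mice of 1 genotype and none of the other, the 2 smallest p per list, and the 5 mRNAs most like Tfeb. 2 genes of the lists are not reported here. The members and lists were chosen with earlier results of these data known. Retreg1 was counted under its older symbol in the tables, Fam134b. Alternatives were one scale, quantile normalization, a pseudocount of 0.1, stricter peak limits, equal numbers of peaks, other filters and overlaps, a mean-variance trend, the replicate block and each mouse left out.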

Additional observations from a re-analysis of the deposited data

How the results depend on the processing

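None of the 7 tested members was called under any of the 17 alternatives that could be fitted. Tfeb kept a positive difference throughout (1.07 to 1.96, adjusted p from 0.473 to 0.901), as did Wdfy3 (0.25 to 1.06). The called mRNAs numbered 0 as listed, 10 on one scale, 109 with a pseudocount of 0.1, 83 with the highest peak in place of the sum, and 0 to 247 with 1 mouse left out, the 247 being without 5xFAD mouse 3. Called regions numbered 0, 200 on one scale, 284 with a pseudocount of 0.1, 3 with the mean-variance trend, chosen after seeing the data, and 0 to 830 with 1 mouse left out, the 830 again without 5xFAD mouse 3. No testable list gene was called under any alternative except Pik3r4 and Sgsh without 5xFAD mouse 3. With the replicate block the counts of called mRNAs and regions stayed at 0, and no call changed.

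Differences that turned sign were those of Atg2a (-0.52 on one scale, -0.50 with quantile normalization, -0.31 with equal numbers of peaks and with the stricter p), Atg2b (-0.42 with quantile normalization and -0.80 with equal numbers of peaks), Lamp1 (-0.47 on one scale, -0.46 with quantile normalization) and Atg9a (0.48 with a fold enrichment of at least 4). With 1 mouse left out the ranges were -0.21 to 0.53 for Atg2a, -0.97 to 0.82 for Atg9a, -0.040 to 0.36 for Lamp1 and -2.31 to 0.13 for Ctsd. The cause was not tested. Ctsd could not be fitted with a fold enrichment of at least 4 or among mRNAs reliable in both genotypes, nor Atg2b with the stricter p. The single peaks carry no counts, so a missing peak cannot be told apart from one just under the limit of the caller.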

Other observations

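Several regions of these genes were listed in same-numbered mice of both genotypes. The untranslated exon 1 of Tfe3 and Wdfy3 exon 44 were found in WT mouse 3 and 5xFAD mouse 3 alone, and Wdfy3 exon 1 in WT mouse 2 and 5xFAD mouse 2 alone. Of the 4 member regions found in 1 mouse of each genotype, 3 were in mice with the same number, as were 74.6% of 3063 such regions in the whole series. Of the 4 member regions found in 2 mice of each genotype, 3 (Atg2a exon 7, Wdfy3 exon 2 and Lamp1 exon 2) were in mice with the same numbers. Whether same-numbered mice shared a litter or a preparation was not tested.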
